A study of Homo sapiens with 6 samples.

Results

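The genes described here are 50 genes of the G1 and S phases of the cell cycle, those that build, fire and regulate DNA replication. They were taken by symbol: each symbol was matched to 1 Ensembl gene ID in GENCODE release 29, and all 50 were found among the 58735 IDs of the table. All 50 were also among the 15638 genes that were tested, that is, those whose FPKM (fragments normalised to exon length and library size) averaged 1 or more across the 3 libraries of either line. The study measured messenger RNA in 6 libraries from 2 human prostate cancer cell lines. Each line was transfected with PLXND1 siRNA 1, PLXND1 siRNA 2 or a control siRNA, and each of these gave 1 library per line. The target, Plexin D1, is a receptor that binds semaphorins, and the series asks about its part in neural lineage plasticity. H660 (NCI-H660) is a model of neuroendocrine prostate cancer, and C4-2B MDVR descends from C4-2B cells and tolerates enzalutamide, a drug used against prostate cancer. The controls carry a control siRNA, so transfection is shared by every library. No siRNA was repeated in the same line, and separate cultures are not stated, so p-values measure only the spread between these libraries.

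Before a cell copies its DNA, the origin recognition complex (ORC) with CDC6 and CDT1 loads rings of the MCM2 to MCM7 proteins on chromosomes in G1, which is called licensing. In S phase CDC45 and the GINS proteins turn these rings into active helicases, and polymerases copy both strands with the help of the PCNA clamp. Cyclin D with CDK4 or CDK6, and later cyclin E with CDK2, release E2F transcription factors from the retinoblastoma protein, and E2F factors switch on many of the genes listed here.

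Promoter sequence is shown because many of these genes are known E2F targets. Whether E2F factors had a part in the differences between libraries was not tested. In the RefSeq promoter table (GRCh38.p14), 42 of the 50 genes had an entry. The 250 bases before the start were searched on both strands for the 8-base E2F motif in 4 spellings, TTTCCCGC, TTTCGCGC, TTTGCCGC and TTTGGCGC, where overlapping matches were counted apart. At least 1 match was present in 15 of the 42 promoters (35.7%), against 761 of 27305 promoters in the whole table (2.79%) and 462 of 10186 promoters of tested genes (4.54%). The CCAAT motif, in 52.4% of the 42, was in 35.3% of the promoters of tested genes. The GC box GGGCGG was in 73.8% against 68.2%, and the CHR motif of mitotic genes (TTTGAA or TTCGAA) in 7.14% against 8.94%. A match is a description of the letters only. Shown are the 3 promoters with the most matches, MCM6 (4 matches, which overlap in pairs), MCM7 (2) and E2F1 (2), and those of UHRF1 (1) and CDT1 (1), whose levels are given below. Each ends at the base before the start, runs 5′ to 3′ on the gene's strand, and has the matches in capitals. The regions are chr2:135876444-135876600 (minus strand) for MCM6, chr7:100101398-100101589 (minus) for MCM7, chr20:33686386-33686535 (minus) for E2F1, chr19:4909351-4909500 (plus) for UHRF1 and chr16:88803639-88803788 (plus) for CDT1.
MCM6: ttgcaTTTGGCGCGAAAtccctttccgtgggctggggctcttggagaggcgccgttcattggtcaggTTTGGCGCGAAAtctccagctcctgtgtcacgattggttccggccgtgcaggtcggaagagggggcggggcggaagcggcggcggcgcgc
MCM7: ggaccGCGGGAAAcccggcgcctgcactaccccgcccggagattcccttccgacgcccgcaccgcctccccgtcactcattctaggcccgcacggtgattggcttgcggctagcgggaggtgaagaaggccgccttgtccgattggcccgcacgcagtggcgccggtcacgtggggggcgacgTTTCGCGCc
E2F1: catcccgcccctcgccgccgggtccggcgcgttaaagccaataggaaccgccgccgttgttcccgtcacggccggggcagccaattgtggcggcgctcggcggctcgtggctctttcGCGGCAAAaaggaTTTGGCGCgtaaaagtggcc
UHRF1: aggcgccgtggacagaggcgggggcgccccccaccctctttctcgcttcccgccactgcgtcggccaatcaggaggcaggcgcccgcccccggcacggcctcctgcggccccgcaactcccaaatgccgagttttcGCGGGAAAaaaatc
CDT1: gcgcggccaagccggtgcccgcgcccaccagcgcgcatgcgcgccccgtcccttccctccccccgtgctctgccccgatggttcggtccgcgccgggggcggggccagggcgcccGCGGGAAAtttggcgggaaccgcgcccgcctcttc

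The libraries held 17655802 to 24105369 fragments assigned to genes, as recovered from the FPKM values. PLXND1 was at 1.57 and 3.10 FPKM with siRNA 1 and siRNA 2 in C4-2B MDVR, against 7.40 FPKM in its control, and at 7.62 and 7.54 FPKM in H660, against 9.13 FPKM in its control. Of 8 luminal prostate markers, 0 averaged at least 1 FPKM in H660 and all 8 did in C4-2B MDVR. Of 8 neuroendocrine markers, all 8 did in H660 and 1 (ENO2) in C4-2B MDVR, where INSM1 and CHGB were listed at 0. Among 14 fibroblast, leukocyte and endothelial markers, COL1A1 averaged at least 1 FPKM in both lines and CDH5 in H660. Mitochondrial genes gave 7.44% and 6.83% of the fragments with siRNA 1 and siRNA 2 in C4-2B MDVR, against 3.38% in its control, and 8.58% to 9.64% in the H660 libraries.

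In C4-2B MDVR the replication genes were lower with siRNA 1 than with siRNA 2 in 49 of 50 cases, and the 1 exception was the cyclin D1 gene CCND1. Over all 15638 genes tested this was so for 48.0%. The median difference of siRNA 1 minus siRNA 2 was −0.47 on the log2(FPKM + 1) scale over the 50 genes, against 0.00 over all genes tested. By a rule of size, at least 1.5-fold on that scale, 19 of the 50 were lower with siRNA 1 than with siRNA 2 and 1 was higher, where 7.72% of all genes were lower and 8.03% higher. The siRNA 1 library was the lowest of the 3 libraries of the line for 46 of 50 genes (32.6% of all genes tested). For 32 of these 46 the control lay between the siRNAs, and for 14 the siRNA 2 library lay between siRNA 1 and the control. At 2-fold on the log2(FPKM + 1) scale, 2 were lower, CDT1 and E2F7 (1.66% of all genes), and CCND1 was higher (2.44%). By the ratio of FPKM, without the added 1, E2F8 (0.392), E2F2 (0.464) and CDK6 (0.218, from 10 and 37 fragments) were also more than 2-fold lower. In bulk libraries, fewer cells in S phase and less RNA per cell cannot be told apart. These are single libraries, so there is no replicate check and no test of this difference within the line.

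**Figure D1:**
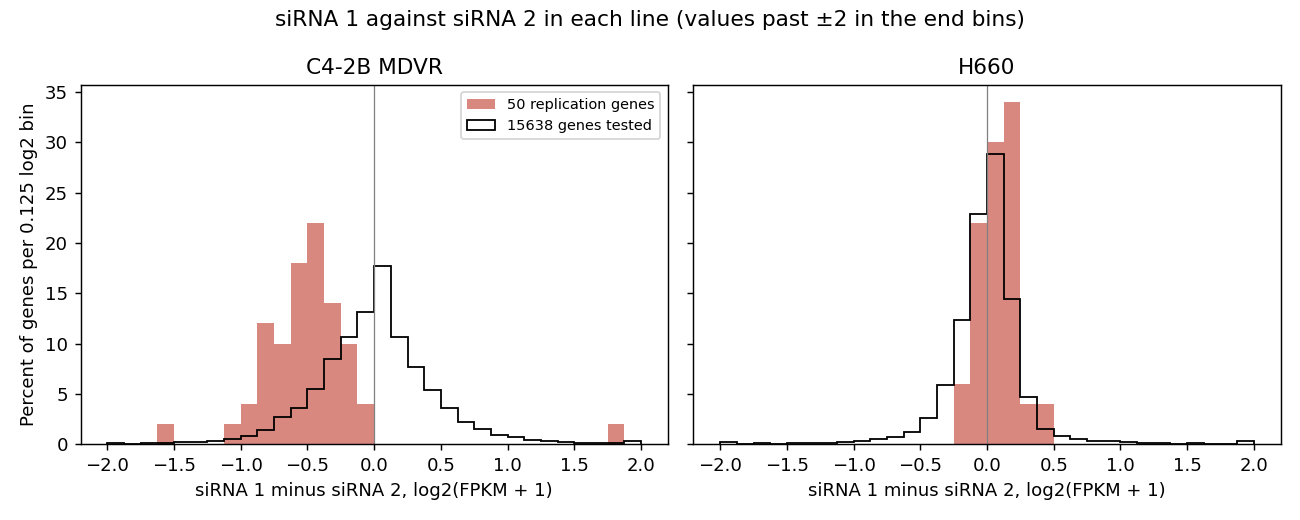
Percent of genes (y axis) by the difference of siRNA 1 minus siRNA 2 on the log2(FPKM + 1) scale (x axis), in C4-2B MDVR (left) and H660 (right), for the 50 replication genes (filled) and the 15638 genes tested (line). In C4-2B MDVR 49 of the 50 lie left of 0, with a median of −0.47, and in H660 the median is 0.11.

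Against the control, siRNA 1 and siRNA 2 differed in direction. With siRNA 1 in C4-2B MDVR, 46 of the 50 genes were below the control (45.2% of all genes tested) and 4 above it, namely ORC6, CCND1, CCNE1 and E2F3. On the log2(FPKM + 1) scale the median difference was −0.35, against 0.01 over all genes, and 9 genes were at least 1.5-fold lower (5.13% of all genes; 5.64% of the 12888 genes with a mean of at least 1 FPKM in this line) and 1 at least 1.5-fold higher (7.42%). With siRNA 2 in the same line, 15 genes were below the control (44.3% of all genes) and 35 above it (51.9%), and the median was 0.16, against 0.01 over all genes. At least 1.5-fold lower with siRNA 2 was 1 gene, CCND1 (4.66% of all genes), and 2 were at least 1.5-fold higher, CDT1 and PRIM1 (5.53%). At 2-fold on that scale, siRNA 1 against the control had 0 of 50 lower (1.22% of all genes) and 0 higher (2.26%). With siRNA 2, CCND1 was lower (1.37%) and CDT1 higher (1.63%). The added 1 shrinks differences of low genes. By the ratio of FPKM, E2F7 (0.476) and CDK6 (0.202, from 10 and 51 fragments) were more than 2-fold lower with siRNA 1 than in the control. Below the control with both siRNAs were 14 of 50 (25.8% of all genes), and above it with both were 3, ORC6, CCNE1 and E2F3 (32.0%). Both comparisons use the same control library. Scaling by recovered fragments without mitochondrial genes left the siRNA 1 count at 46 genes below the control and put 22 below it with siRNA 2. Scaling to all recovered fragments put 23 below it with siRNA 2, where 8 genes changed side (GMNN, MCM2, MCM4, GINS3, GINS4, RFC5, DSCC1 and CHAF1A). The part of other differences between these libraries was not tested. The 8 luminal markers summed to 1605 and 739 FPKM with siRNA 1 and siRNA 2, against 1164 FPKM in the control. CDKN1A, which encodes the CDK inhibitor p21, was at 422 and 346 FPKM with siRNA 1 and siRNA 2, against 47.5 FPKM in the control. In H660 CDKN1A was at 96.3 and 94.5 FPKM with siRNA 1 and siRNA 2, against 92.6 FPKM in its control.

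**Figure D2:**
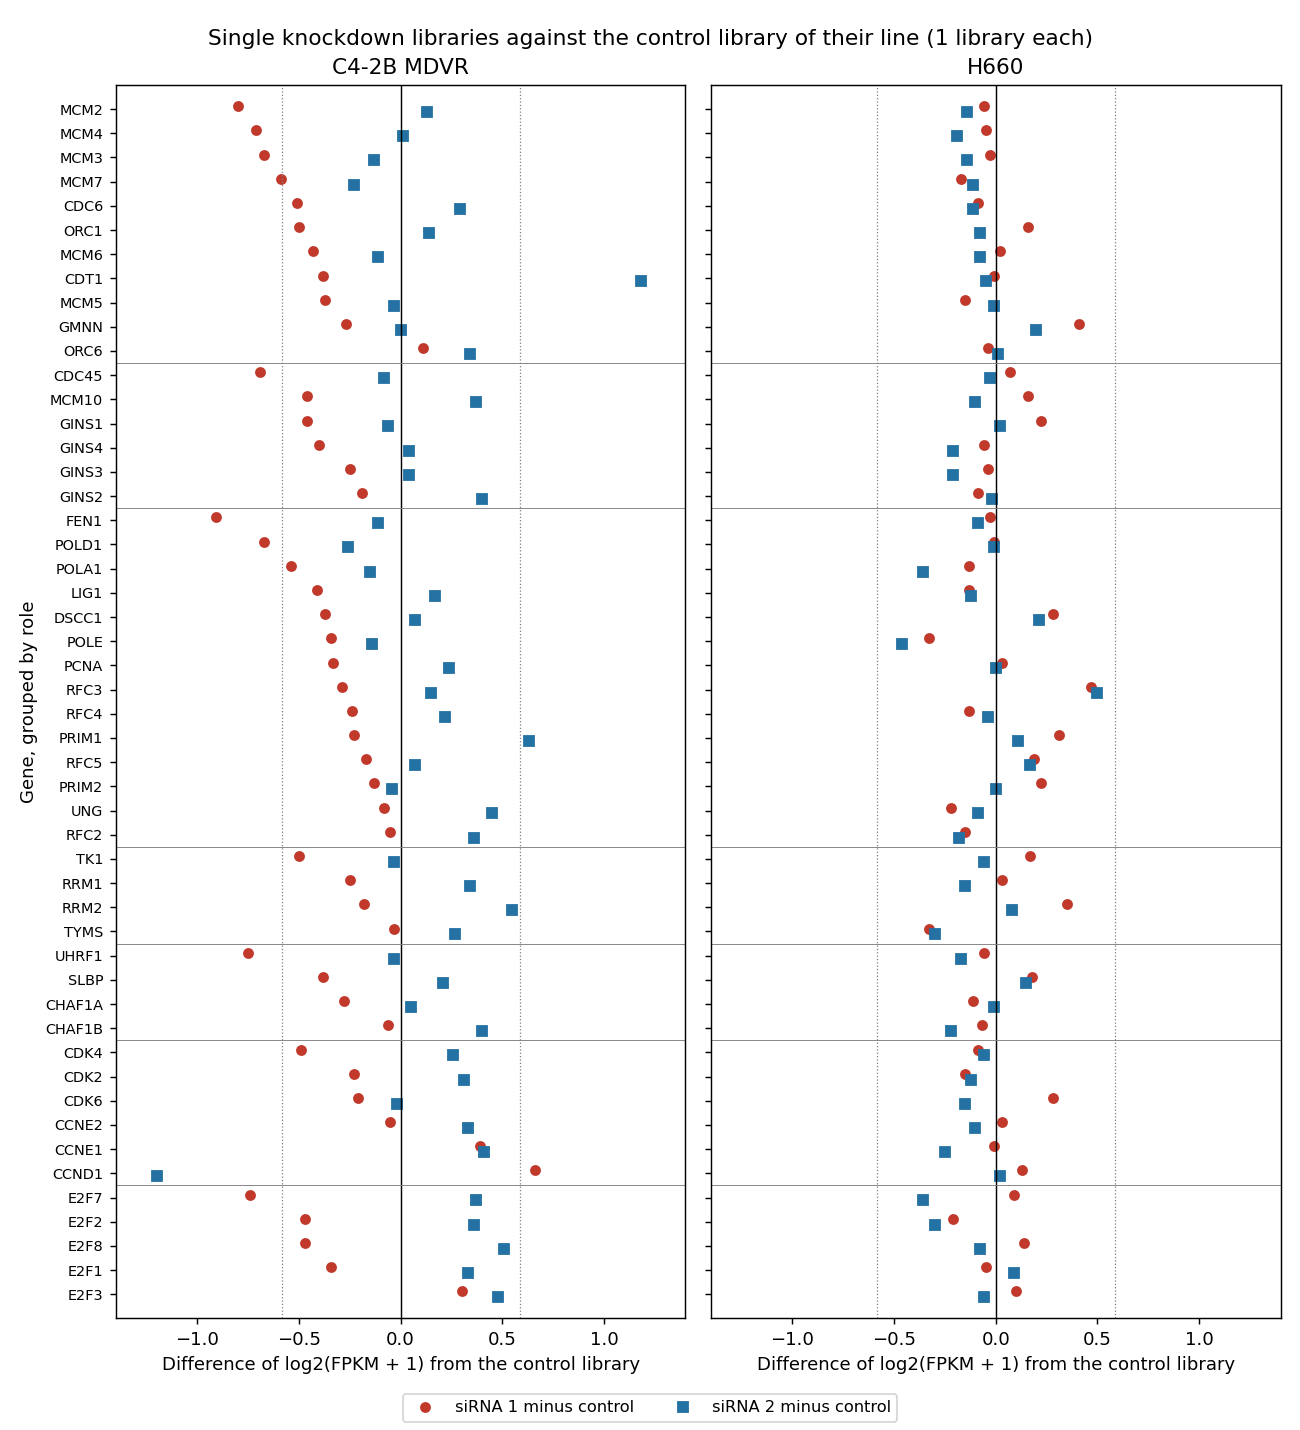
Difference of each knockdown library from the control library of its line on the log2(FPKM + 1) scale (x axis) for the 50 genes, grouped by role (y axis), in C4-2B MDVR (left) and H660 (right). Circles are siRNA 1, squares siRNA 2, and dotted lines mark 1.5-fold. In C4-2B MDVR 46 circles lie left of 0 and 15 squares do, and in H660 no point passes 1.5-fold.

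Among the 11 licensing genes, all 11 were lower with siRNA 1 than with siRNA 2 in C4-2B MDVR, with a median difference of −0.53, and 10 were below the control with siRNA 1. MCM2, a subunit of the ring that unwinds DNA (ENSG00000073111), was at 17.8 FPKM with siRNA 1 and 34.8 FPKM with siRNA 2, against 31.8 FPKM in the control. The siRNA 1 library was the low one, at a ratio to the control of 0.562 (95% interval 0.530 to 0.595), and the siRNA 2 ratio was 1.09 (1.04 to 1.15). On the log2(FPKM + 1) scale the siRNA 2 difference was 0.13 as deposited and −0.01 when scaled to all recovered fragments, so its side of the control depends on the scaling. These intervals are exact binomial intervals from the fragment numbers (1761, 2768 and 3228 fragments for siRNA 1, siRNA 2 and the control) and cover counting error only. MCM7, a subunit of the same ring and its highest in this line, was at 32.7 and 42.4 FPKM with siRNA 1 and siRNA 2, against 49.8 FPKM in the control, so both siRNA libraries were below it. MCM3 (−0.67) and MCM4 (−0.71) also passed 1.5-fold with siRNA 1, while MCM6 (−0.43) and MCM5 (−0.37) did not.

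CDT1, which brings the MCM ring to the origin and is limited to G1 by degradation and by geminin, had the largest positive difference of siRNA 2 from the control among the 50 in C4-2B MDVR. It was at 16.5 FPKM with siRNA 1 and 50.6 FPKM with siRNA 2, against 21.8 FPKM in the control. The siRNA 2 library stood far above the other 2, at 2.32 times the control (2.18 to 2.47), and siRNA 1 was at 0.756 times (0.699 to 0.818). GMNN, which encodes geminin, did not follow: its differences from the control were −0.27 and 0.00 with siRNA 1 and siRNA 2. CDC6, the loader that acts with ORC, was at −0.51 and 0.29 with siRNA 1 and siRNA 2, and ORC1, the largest ORC subunit, at −0.50 with siRNA 1 and 0.14 with siRNA 2. ORC6, the smallest ORC subunit, was at 5.60 and 6.72 FPKM with siRNA 1 and siRNA 2, against 5.12 FPKM in the control, so both were above it. Its siRNA 1 ratio was 1.09 (0.962 to 1.25), so counting error alone could put it on either side. The siRNA 2 ratio was 1.31 (1.15 to 1.5).

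The 6 genes of helicase activation were all below the control with siRNA 1 in C4-2B MDVR (median −0.43), while with siRNA 2 they lay between −0.08 and 0.40. CDC45, which joins the MCM ring to form the active helicase, was the 1 of the 6 past 1.5-fold with siRNA 1 (−0.69, and −0.08 with siRNA 2). GINS1, a subunit of the GINS complex and the highest of the group in both lines, was at 15.7 and 21.0 FPKM with siRNA 1 and siRNA 2, against 22.0 FPKM in the control. MCM10, which is needed for origin firing, was at −0.46 and 0.37 with siRNA 1 and siRNA 2.

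All 14 genes of the clamp, the polymerases and strand joining were below the control with siRNA 1 (median −0.31), against 5 of 14 with siRNA 2. FEN1, the nuclease that trims Okazaki fragments, had the lowest siRNA 1 difference from the control of the 50 on the log2(FPKM + 1) scale (−0.91). It was at 16.5 FPKM with siRNA 1 and 29.4 FPKM with siRNA 2, against 31.9 FPKM in the control, ratios of 0.517 (0.475 to 0.562) and 0.923 (0.856 to 0.996). POLD1, the catalytic subunit of polymerase delta, was at 11.4 and 15.5 FPKM with siRNA 1 and siRNA 2, against 18.8 FPKM in the control, and POLA1, of the polymerase that starts each strand, at 4.15 and 5.73 FPKM with siRNA 1 and siRNA 2, against 6.47 FPKM in the control. For both of these polymerase genes the siRNA 2 library was also below the control. PRIM1, the catalytic subunit of primase, was at 7.54 and 14.5 FPKM with siRNA 1 and siRNA 2, against 8.99 FPKM in the control, so its siRNA 2 library stood above the others at 1.61 times the control (1.42 to 1.82). PCNA, the sliding clamp and the highest of the group in both lines, was at 78.7 and 118 FPKM with siRNA 1 and siRNA 2, against 99.3 FPKM in the control.

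The 4 genes of nucleotide supply were lower with siRNA 1 than with siRNA 2 by 0.30 to 0.73 log2 units. RRM2, the regulatory subunit of ribonucleotide reductase, was at 11.9 and 20.3 FPKM with siRNA 1 and siRNA 2, against 13.6 FPKM in the control. TK1, thymidine kinase and the highest of the group in this line, was at 124 and 172 FPKM with siRNA 1 and siRNA 2, against 175 FPKM in the control, so its siRNA 1 library was the low one. Of the 4 genes of histone and chromatin copying, UHRF1, which recruits the maintenance DNA methyltransferase, was at 5.0 and 8.90 FPKM with siRNA 1 and siRNA 2, against 9.08 FPKM in the control. Its siRNA 1 ratio was 0.550 (0.494 to 0.613) and its siRNA 2 ratio 0.980 (0.890 to 1.08). SLBP, which binds histone messenger RNA, was at 37.4 and 56.7 FPKM with siRNA 1 and siRNA 2, against 49.0 FPKM in the control.

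The E2F factors had the widest gap between the siRNAs of the 7 role groups, with a median of −0.83 for siRNA 1 minus siRNA 2 over 5 genes. E2F7, an atypical E2F that represses E2F targets, was at 1.56 FPKM with siRNA 1 and 4.53 FPKM with siRNA 2, against 3.28 FPKM in the control, ratios of 0.476 (0.400 to 0.565) and 1.38 (1.21 to 1.58). Its relative E2F8 was at 1.69 and 4.31 FPKM with siRNA 1 and siRNA 2, against 2.73 FPKM in the control. For both repressors the control lay between the siRNA libraries. E2F1, an activator and the highest of the group, was at 34.7 and 55.6 FPKM with siRNA 1 and siRNA 2, against 44.0 FPKM in the control, in the same order. E2F3, another activator, was above the control with both siRNAs, at 9.83 and 11.3 FPKM with siRNA 1 and siRNA 2, against 7.79 FPKM in the control.

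The cyclin and kinase genes were the most mixed group in C4-2B MDVR. CCND1 (cyclin D1, ENSG00000110092) ran against the other 49 genes. It was at 106 FPKM with siRNA 1 and 28.5 FPKM with siRNA 2, against 66.8 FPKM in the control. The siRNA 1 library was thus at 1.59 times the control (1.54 to 1.64) and the siRNA 2 library at 0.427 times (0.407 to 0.448). CCNE1, which encodes cyclin E1, was close to equal in the siRNA libraries, at 9.68 and 9.85 FPKM with siRNA 1 and siRNA 2, against 7.15 FPKM in the control. CDK4, the partner of cyclin D, was at −0.49 and 0.26 with siRNA 1 and siRNA 2, and CDK2, the partner of cyclin E, at −0.23 with siRNA 1 and 0.31 with siRNA 2. CDK6, another partner of cyclin D, was near the limit of detection, with 10 and 37 fragments with siRNA 1 and siRNA 2, against 51 in the control, where the log2(FPKM + 1) scale shows little.

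**Figure D3:**
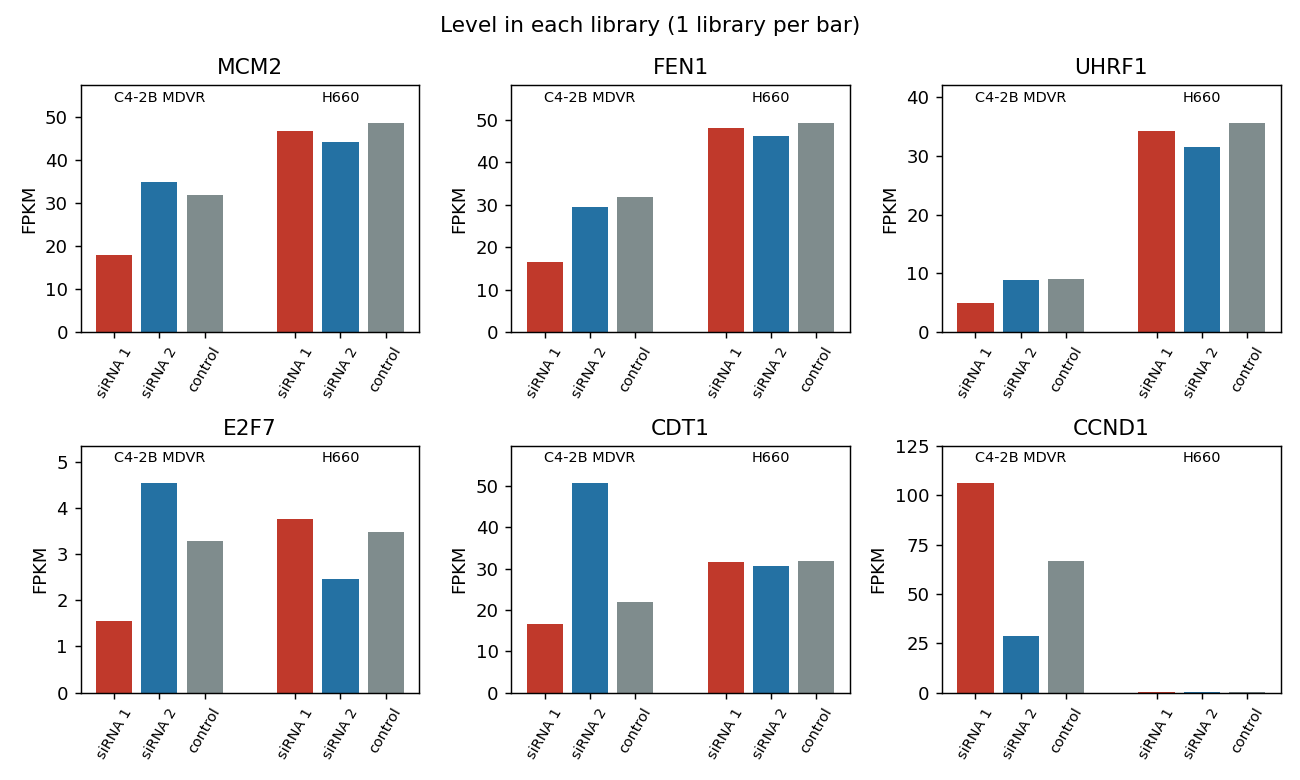
Level in FPKM (y axis, from 0) of 6 genes in each library (x axis, 1 library per bar) of C4-2B MDVR and H660. In C4-2B MDVR, CCND1 is highest with siRNA 1 (106 FPKM), CDT1 is highest with siRNA 2 (50.6 FPKM), and MCM2, FEN1, UHRF1 and E2F7 are lowest with siRNA 1.

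In H660 the same genes lay close to the control with both siRNAs. PLXND1 itself was lowered less there, at 0.835 and 0.826 times the control with siRNA 1 and siRNA 2. In C4-2B MDVR it was at 0.212 and 0.418 times the control. The part of this smaller drop was not tested. The medians were −0.02 with siRNA 1 and −0.08 with siRNA 2, against −0.02 and 0.00 over all genes tested, and 0 of 50 were 1.5-fold lower or higher with siRNA 1 (2.72% and 3.81% of all genes) or with siRNA 2 (2.21% and 3.42%). Below the control were 28 genes with siRNA 1 (52.9% of all genes) and 37 with siRNA 2 (50.3%), and 26 were below it with both (38.3%) and 11 above it with both (32.1%). Both comparisons use the same H660 control library. The siRNA 1 minus siRNA 2 difference ran the other way from C4-2B MDVR: 36 of 50 were higher with siRNA 1 (49.7% of all genes), with a median of 0.11.

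The lowest H660 values by the mean of both siRNAs were those of POLE and TYMS. POLE, the catalytic subunit of the leading-strand polymerase, was at 7.29 and 6.57 FPKM with siRNA 1 and siRNA 2, against 9.40 FPKM in the control. It was also below the control in C4-2B MDVR, at 3.66 and 4.36 FPKM with siRNA 1 and siRNA 2, against 4.89 FPKM in the control. TYMS, which makes thymidylate, was at 19.0 and 19.5 FPKM in H660 with siRNA 1 and siRNA 2, against 24.2 FPKM in the control. The highest were RFC3, a subunit of the clamp loader, at 14.7 and 14.9 FPKM with siRNA 1 and siRNA 2, against 10.3 FPKM in the control, and GMNN at 26.0 and 22.3 FPKM with siRNA 1 and siRNA 2, against 19.3 FPKM in the control. RFC3 was at 1.43 (1.30 to 1.57) and 1.45 (1.32 to 1.60) times the control with siRNA 1 and siRNA 2. Both ratios use the same single control library, so they are not independent. Over both lines, 8 genes were below the control in all 4 knockdown libraries (MCM3, MCM5, MCM7, POLA1, POLD1, POLE, FEN1 and UHRF1) and 0 were above it in all 4, against 10.1% and 10.7% of all genes tested. In each line both siRNA libraries share the same control library here too.

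No replication gene passed the limma test of the knockdown after adjustment over all genes. In C4-2B MDVR the mean change of both siRNAs had a median of −0.11 over the 50 genes, against 0.02 over all genes. This median was 0.16 without the siRNA 1 library and −0.35 without the siRNA 2 library, so 1 library sets its sign. Passing were 0 of 50 and 0 of 15638 genes (0.0%), and 0 of 50 and 921 of 15638 genes (5.89%) had an unadjusted p under 0.05. That unadjusted count rests on single libraries too: it was 10 of 50 (8 higher, 2 lower; 2432 genes in all) without the siRNA 1 library and 19 of 50 (1 higher, 18 lower; 2958 in all) without the siRNA 2 library, with 0 genes passing after adjustment. In H660 the median was −0.06, and 0 of 50 and 0 of 15638 passed (0.0%), with 0 of 50 and 647 genes (4.14%) at that unadjusted level. The fit has 1 spread per gene over both lines, so the gap between the siRNAs in C4-2B MDVR enters the H660 test. For CDT1 the SE was 0.66 in both lines, although its siRNA libraries were at 31.7 and 30.7 FPKM in H660. The lack of calls in H660 is thus no measure of H660 alone. In the fit over both lines 0 passed as well (0.0%). By limma POLE was there the 1 of 50 with an unadjusted p under 0.05, at −0.31 ± 0.12 (SE, adjusted p = 0.985), beside 654 genes in all (4.18%). The difference of the effect between the lines passed for 0 of 50 genes and 0 in all (0.0%), with 0 of 50 and 701 genes (4.48%) at the unadjusted level, so a difference between C4-2B MDVR and H660 was not shown by this test. When limma's voom was run on the recovered fragments, 0 genes passed in each of these 4 comparisons, with 988, 560, 752 and 753 genes at the unadjusted level for C4-2B MDVR, H660, both lines and the difference between lines. Of the 50, voom had 2, 0, 2 and 0 at that level, and the C4-2B MDVR median of the 50 was −0.26, against −0.09 over all genes.

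The siRNAs were also tested apart, with the lines as repeats. Against the control 0 of 15638 genes passed with siRNA 1 (0.0%) and 0 with siRNA 2 (0.0%), with 566 (3.62%) and 581 (3.72%) at an unadjusted p under 0.05 and 0 of the 50 among either. For siRNA 1 against siRNA 2, 0 genes passed limma (0.0%) and 531 (3.4%) were at that level, among them 1 of the 50, CCND1, at 0.99 ± 0.40 log2 units (SE, adjusted p = 0.963). The median of the 50 was −0.17 for siRNA 1 against control, 0.05 for siRNA 2 against control and −0.21 for siRNA 1 against siRNA 2. Single libraries turned the sign of each. The siRNA 1 against control median was 0.02 without the C4-2B MDVR siRNA 1 library and −0.39 without the H660 siRNA 1 library. The siRNA 2 against control median was −0.17 without the C4-2B MDVR siRNA 2 library and 0.27 without the H660 siRNA 2 library. The siRNA 1 against siRNA 2 median was 0.06 without the C4-2B MDVR siRNA 1 library and −0.46 without the H660 siRNA 1 library. By voom 0 genes passed in these 3 comparisons, with 681, 636 and 625 at the unadjusted level, among them 3, 2 and 1 of the 50. A difference that is large in 1 line and near 0 in the other enters the spread of this fit.

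The lines themselves differed in many of these genes, mostly with H660 higher. In every H660 library 32 of the 50 were higher than in every C4-2B MDVR library (37.1% of all genes tested), 8 were lower (37.4%), and 10 overlapped. By limma, with an adjusted p under 0.05 and at least a 2-fold difference, 14 of 50 were higher in H660 (20.1% of all genes) and 3 lower (17.9%). Together these are 17 of 50, against 38.0% of all genes, so calls were not more frequent than over all genes tested. The shares over all genes include genes that entered the test through 1 line only, which the filter makes higher in that line. Of the genes tested, 12888 averaged at least 1 FPKM in C4-2B MDVR and 13946 in H660, as did 49 of the 50 in each line. A background of genes at that level in both lines was not computed. The median line difference of the 50 was 0.57 log2 units, against 0.00 over all genes.

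The largest difference among those higher in H660 was that of CCNE2, which encodes cyclin E2. It was at 14.7, 13.3 and 14.4 FPKM in H660 with siRNA 1, siRNA 2 and the control siRNA, against 1.60, 2.38 and 1.69 FPKM in C4-2B MDVR. The averages were 14.2 ± 0.744 FPKM in H660 and 1.89 ± 0.426 FPKM in C4-2B MDVR (SD, n = 3 each), a log2 difference of 2.40 ± 0.14 (SE, adjusted p = 3.07e-05). MCM3, another ring subunit and the highest licensing gene in H660, was at 109, 101 and 111 FPKM there in the same order, against 15.2, 22.5 and 24.8 FPKM in C4-2B MDVR. For both genes the lowest H660 library was far above the highest C4-2B MDVR library. UHRF1 averaged 33.8 ± 2.13 FPKM in H660 and 7.66 ± 2.31 FPKM in C4-2B MDVR (SD, n = 3 each), and PCNA 334 ± 3.80 FPKM in H660 and 98.5 ± 19.4 FPKM in C4-2B MDVR. The activator gene E2F2 averaged 15.1 ± 1.74 FPKM in H660 and 3.27 ± 1.20 FPKM in C4-2B MDVR, and the repressor gene E2F8 11.8 ± 0.979 FPKM in H660 and 2.91 ± 1.32 FPKM in C4-2B MDVR. Their log2 differences were 2.33 for MCM3, 2.04 for UHRF1, 1.95 for E2F2, 1.77 for PCNA and 1.76 for E2F8, with H660 above C4-2B MDVR in every library. The other 8 genes called higher were MCM4, PRIM1, LIG1, CDK2, E2F1, CDK6, ORC1 and TYMS, at 1.66 to 1.08 log2 units. Of these, ORC1 was under 2-fold without the siRNA 1 library of C4-2B MDVR (0.88) or of H660 (0.99), TYMS without either control library (0.94 each) and CDK6 without the H660 siRNA 1 library (0.97).

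The 3 genes called lower in H660 were CCND1, TK1 and GINS4. CCND1 was at 0.203, 0.112 and 0.10 FPKM in H660 with siRNA 1, siRNA 2 and the control siRNA, from 23, 14 and 12 fragments, against 106, 28.5 and 66.8 FPKM in C4-2B MDVR. The log2 difference was −5.72 ± 0.45 (SE, adjusted p = 0.000103), and the groups did not overlap. TK1 was at 37.5, 31.7 and 33.2 FPKM in H660, against 124, 172 and 175 FPKM in C4-2B MDVR, again without overlap. It averaged 34.1 ± 2.99 FPKM in H660 and 157 ± 28.8 FPKM in C4-2B MDVR (SD, n = 3 each; −2.15 ± 0.17 log2 units, adjusted p = 9.92e-05), and GINS4, a GINS subunit, averaged 2.60 ± 0.264 FPKM in H660 and 7.04 ± 1.30 FPKM in C4-2B MDVR (−1.15 ± 0.15). Among the cyclins and kinases, CDK2, CDK6 and cyclin E2 were called higher in H660 and cyclin D1 lower. CCNE1, at 5.27 ± 0.606 FPKM in H660 and 8.89 ± 1.51 FPKM in C4-2B MDVR, did not reach 2-fold (−0.65 ± 0.15 log2 units). CDK6 and CCND1 passed the 1 FPKM filter only through the line where they were high. CDK6 averaged 0.142 FPKM in C4-2B MDVR and CCND1 0.138 FPKM in H660, so the direction of these 2 calls was set by the filter. In H660 the highest genes of their groups were RRM1, the large subunit of ribonucleotide reductase (44.6 ± 2.98 FPKM, SD, n = 3), and CDK2 (44.6 ± 2.50 FPKM).

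**Figure D4:**
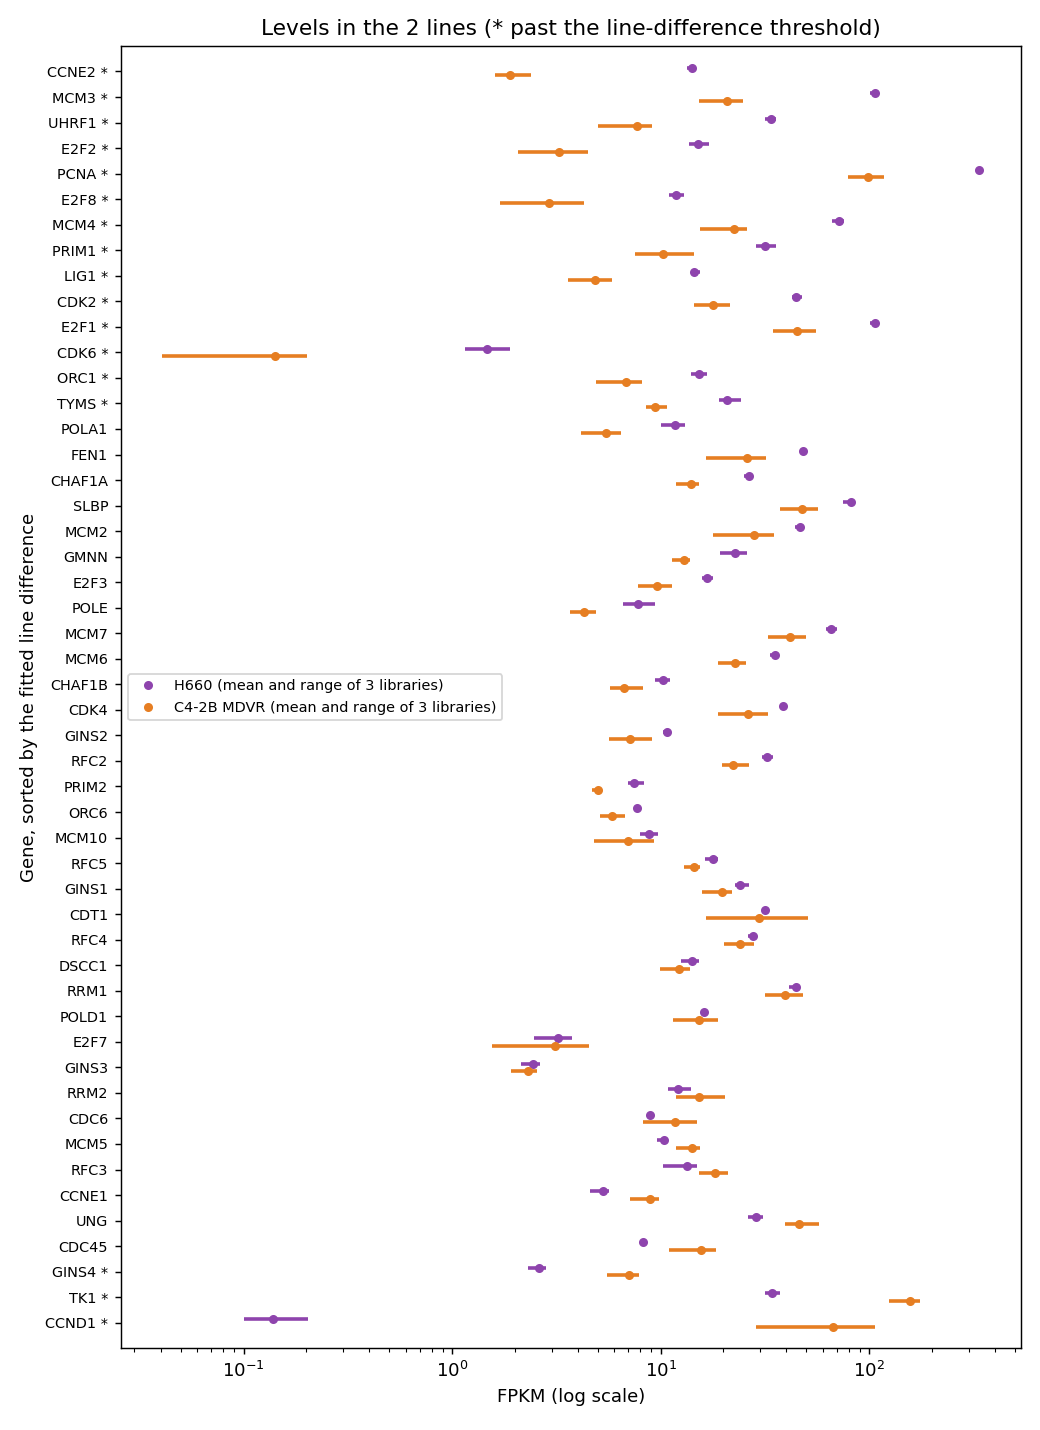
Mean (point) and range (line) of the FPKM of 3 libraries per line, on a log axis, for the 50 genes sorted by the fitted line difference, with H660 above C4-2B MDVR in each row. CCNE2, at the top, averaged 14.2 FPKM in H660 and 1.89 FPKM in C4-2B MDVR, and CCND1, at the bottom, 0.138 FPKM in H660 and 67.2 FPKM in C4-2B MDVR.

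By role, the E2F factors had the highest median line difference (1.25 log2 units, 4 of 5 higher in every H660 library). Next were the cyclins and kinases (0.84, 4 of 6 higher and 2 lower) and the histone and chromatin genes (0.83, 4 of 4 higher). Over all genes tested, 37.1% were higher in every H660 library and 37.4% lower. The cyclin and kinase median includes CDK6 and CCND1, whose direction was set by the filter. These groups hold few genes, and their order was not tested. The licensing genes had a median of 0.66, with 8 of 11 higher in every H660 library and MCM5 lower. The helicase activation genes (0.18) and the nucleotide supply genes (−0.04) were split between the lines.

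A further list of 46 replication genes gave a comparison for the pattern in C4-2B MDVR. Tested were 45 of them, since CCND2 was below the limit in both lines. Of these, 38 were lower with siRNA 1 than with siRNA 2 (48.0% of all genes), with a median of −0.21, against 49 of 50 and −0.47 above. The lowest were WDHD1, a replisome scaffold (−0.79), CCNA2, which encodes the S and G2 cyclin A2 (−0.79), and CDC25A, the phosphatase that activates CDK2 (−0.71). CCNA2 was at 8.75 and 15.8 FPKM with siRNA 1 and siRNA 2, against 17.2 FPKM in the control. The highest were POLE4, an accessory subunit of polymerase epsilon (0.30), ORC5 (0.28) and the histone chaperone gene ASF1A (0.14). By limma 0 of the 45 passed in each of the knockdown and siRNA comparisons (0.0% of all genes in each). In H660 13 were higher (20.1% of all genes) and 4 lower (17.9%) than in C4-2B MDVR. The shares over all genes again include genes that entered the test through 1 line only.

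Members with and without an E2F match in the promoter had close medians in the C4-2B MDVR pattern. The split is by letters only, and a promoter without a match to the listed spellings may still belong to an E2F target. The split thus cannot separate E2F targets from other genes, and a part of E2F factors was not tested. The 15 with a match had a median siRNA 1 minus siRNA 2 difference of −0.53 (from −1.56 to −0.18), and the 27 without one −0.47 (from −1.11 to −0.02). In H660 these medians were 0.04 and 0.15. The 8 genes with no entry in the promoter table were MCM4, MCM5, GINS4, CCNE2, CCND1, CDK2, E2F8 and DSCC1.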

How the data were processed

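Per the submitters' processing notes, reads (paired ends, 150 bases per the labels' protocols) were aligned with HISAT and quantified with Cufflinks on build hg18, with no versions given. The deposited values are FPKM, computed by the authors. Gene names and exon lengths came from GENCODE 29, which held all 58735 IDs. FPKM times exon length gave whole multiples of 1 step per library (100.0% of genes of at most 100 fragments, tolerance 0.05), from which fragment numbers were recovered. The deposited values thus match the exon lengths of GENCODE 29, which is on GRCh38, and the stated build hg18 conflicts with this. The implied totals were 0.920 to 1.08 times the recovered ones. The median of ratios of the deposited values was 1.01 in every library.

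log2(FPKM + 1) was tested with limma 3.58.1 (R 4.3.3, intensity trend, two-sided, Benjamini-Hochberg over all genes, threshold 0.05). The effect in each line used 4 groups (2 residual degrees of freedom), with 1 spread per gene shared by both lines. Lone controls are thus assumed to vary like the knockdown pairs. The shared effect and line difference used an additive fit (3 residual degrees of freedom). The fold changes understate low genes. The fits were also run on simulated data where both siRNAs moved a gene equally, so this was no check for siRNAs that differ. Members and lists were chosen with earlier results of these data known. Genes given in full were, by rule, the extreme members per siRNA (4 each way) and line, the largest called line differences (up to 6 each way) and the highest of each role group. Other genes were added after their values were seen.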

Additional observations from a re-analysis of the deposited data

How the results depend on the processing

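With no filter on low values (34007 genes), limma called 851 genes in C4-2B MDVR, 876 in H660 and 1372 for how far that effect differed between lines, where 0 passed before, and 0 of the 50 replication genes were among them. Of these calls, 818 were lower and 33 higher in C4-2B MDVR, and 829 lower and 47 higher in H660. They came only with genes under the filter added. Genes at or near 0 in both siRNA libraries have almost no spread, so these calls are not read as knockdown effects. In H660 a pseudocount of 0.1, quantile normalization and the replicate block each gave 1 call, none of the 50. The siRNA number as a replicate block gave 0 calls in C4-2B MDVR, for both lines together and for the difference between lines, and 5993 for the line difference. Over genes the siRNA 1 minus siRNA 2 differences of the 2 lines had a correlation of 0.00, so same-numbered libraries, which share the siRNA, did not deviate together. By voom the line difference had 7493 calls, 18 of the 50 higher and 3 lower, with the median of all genes moved to 0.17. Leaving out each knockdown library in turn gave 0 knockdown calls, and knockdown fits without a control library were not run. Leaving out each of the 6 libraries gave 5851 to 6028 calls for the line difference, with 12 to 16 of the 50 higher and 3 to 4 lower.

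With siRNA 1 in C4-2B MDVR, the members at least 1.5-fold higher were 0 by quantile normalization or scaling to all recovered fragments, an alternative chosen after seeing the data, which put 14 at least 1.5-fold lower. At 2-fold on the log2(FPKM + 1) scale, 0 were lower and 0 higher. With siRNA 2, quantile normalization, the 2-fold rule and both fragment scalings left 1 gene higher, and scaling to all fragments put 23 below the control, where 8 members changed side, MCM2 among them (0.13 as deposited, −0.01). At 2-fold on the same scale, 2 were lower with siRNA 1 than with siRNA 2. A pseudocount of 0.1 gave 1 member 1.5-fold higher in H660 with siRNA 1 than with the control, and 1 than with siRNA 2. In all these settings 46 members stayed below the control with siRNA 1 and 49 below siRNA 2 by count. No difference past 1.5-fold and no called line difference changed sign. Members with smaller differences did change side of the control, up to 8 with siRNA 2 in C4-2B MDVR and up to 4 in an H660 comparison. Depth limits CDK6 in C4-2B MDVR and CCND1 in H660.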
